A study of Homo sapiens with 6 samples.

Results

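The genes described here are 38 protein-coding genes of fatty acid synthesis, desaturation, elongation, activation, oxidation and storage. They were chosen by name from their known roles, with earlier results of these data known. All 38 were found among the 24432 gene symbols of the deposited tables. They were read in 6 RNA-seq libraries labelled as PLC/PRF/5 cells, a long-used line from a human hepatocellular carcinoma. The 3 sensitive libraries came from untreated control cells labelled wild type. The 3 resistant libraries came from cells labelled as resistant and treated with lenvatinib, an inhibitor of VEGF and FGF receptor kinases that is used against liver cancer. The resistant line was raised in rising doses, given in the labels as 20 µmol/L at the start, steps of 0.5 mmol/L and 40 mmol/L at the end, so the units in the labels do not match. All cells were grown in medium with 10% serum, so fatty acids were also supplied from outside. The labels do not say that the replicates were separate cultures, and p-values measure the spread between these libraries only. Drug exposure and resistance fall on the same libraries and cannot be told apart.

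Fatty acid synthesis starts in the cytosol from citrate or acetate. ATP citrate lyase (ACLY) and acetyl-CoA synthetase (ACSS2) make acetyl-CoA, acetyl-CoA carboxylase (ACACA, ACACB) turns it into malonyl-CoA, and fatty acid synthase (FASN) builds palmitate. Elongases and desaturases then lengthen the chain and place double bonds, acyl-CoA synthetases attach coenzyme A, and the product is either stored as triglyceride in lipid droplets or carried into mitochondria by the carnitine shuttle and oxidised. In liver the synthetic branch is driven by the transcription factors SREBP-1c (gene SREBF1) and ChREBP (gene MLXIPL), and the oxidative branch by PPAR-alpha with its coactivator PGC-1alpha (gene PPARGC1A).

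Expression is given as FPKM, fragments per transcript length and per library size. Values are listed for replicates 1, 2 and 3 in that order. Means are given ± SD with n = 3 libraries per group. Log2 fold changes are resistant against sensitive on the log2(FPKM + 1) scale, which understates changes of low genes, and calls rest on an adjusted p below 0.05 (limma, with Benjamini-Hochberg adjustment over 11694 tested genes). A gene was tested if it reached 1 FPKM in at least 3 libraries.

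The 6 libraries differed by at most 3.42% in depth, as read from the spacing of their low values, and between 10391 and 10916 genes reached 1 FPKM in each. Sensitive replicate 3 stood apart from the other sensitive libraries, with a Pearson's r of 0.952 and 0.964 to them across tested genes against 0.995 between replicates 1 and 2. The summed level of 15 hepatocyte markers lay between 4130.7 and 4474.3 FPKM in sensitive and between 19.6 and 46.6 FPKM in resistant libraries. All 14 tested hepatocyte markers were lower there, 7 of them tested by their sensitive values alone, which fixed their direction, and TTR was listed at 0 in every resistant library. The defining markers of the labelled cell type were thus at a low summed level in the resistant group. Pearson's r between libraries of different groups was 0.680 to 0.706, and whether the resistant libraries derive from the labelled line was not tested. Of 6 fibroblast and 5 endothelial markers in the files none passed the filter (sums of at most 1.81 and 0.348 FPKM). The leukocyte marker PTPRC and the adipocyte marker ADIPOQ were listed at 0 in all libraries, and the summed leukocyte list (249.6 to 268.1 against 2.76 to 5.41 FPKM) was mostly lysozyme (LYZ) in sensitive and mostly CD68 in resistant libraries. The 4 adipocyte markers summed to 5.08 to 6.26 FPKM in sensitive and 3.20 to 4.80 FPKM in resistant libraries. The part of these marker differences in the results below was not tested. In bulk RNA, fewer cells of a type and less RNA per cell cannot be told apart.

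In resistant cells the stearoyl-CoA desaturase transcript was 39.1-fold lower, 7 of 11 oxidation genes fell and none rose, and of 7 storage genes DGAT2, LPIN1 and PLIN2 rose, PLIN3 fell and 3 were not called. Of the 38 genes 35 were tested. In resistant cells 8 were called higher and 16 lower, which is 22.9% and 45.7% of the tested members, against 35.2% and 32.5% of all tested genes. Called in either direction were 24 members (68.6%), against a background of 67.7%, a share near that of all tested genes. The counts by role below stand beside these shares of all tested genes, and no role was tested against them. Groups did not overlap for 25 of the 35 (71.4%, background 74.4%). The median log2 fold change of the tested members was -0.36, against 0.08 over all tested genes. ACSL5, PPARGC1A and MLXIPL reached the filter by their sensitive values alone, which fixed their direction. Without these, 8 were higher and 13 lower of 32. This leaves out only genes that stayed below 1 FPKM in every library of the other group, as for the lists below. ACSL1, LPIN1 and DGAT2, among the 8 higher, also needed their resistant values to reach the filter. Their sensitive values lay on both sides of 1 FPKM. ACACB, CD36 and PPARGC1B were below the filter. Without sensitive replicate 3, 10 members were higher and 21 lower, and 80.7% of all tested genes were then called.

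**Figure D1:**
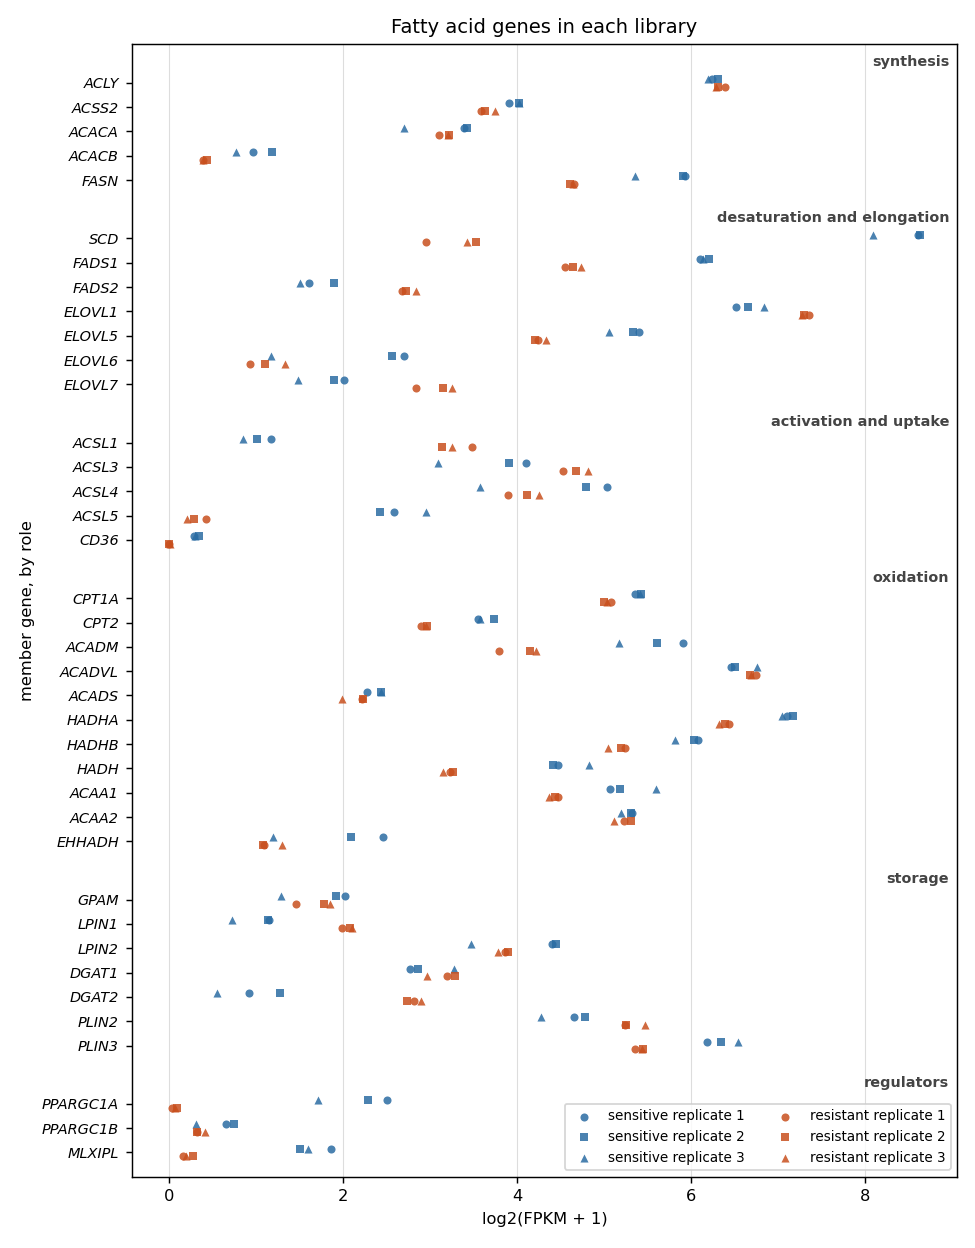
Level of all 38 member genes in each of the 6 libraries, as log2(FPKM + 1) on the horizontal axis, with genes grouped by role on the vertical axis. Blue symbols are sensitive and orange symbols resistant libraries, and the symbol shape is the replicate. The widest gap between the groups is that of SCD, at 271 to 395 FPKM in sensitive and 6.73 to 10.5 FPKM in resistant libraries.

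Among the synthesis genes FASN and ACSS2 fell, while ACLY and ACACA were not called. ACLY, which makes cytosolic acetyl-CoA from citrate, was at 74.5, 78.0 and 71.9 FPKM in sensitive and 83.0, 78.4 and 76.9 FPKM in resistant libraries. The groups overlapped, and the log2 fold change was 0.09 (95% confidence interval -0.13 to 0.30, adjusted p = 0.423). ACACA, the cytosolic carboxylase whose malonyl-CoA feeds synthesis, was at 9.47, 9.73 and 5.48 against 7.60, 8.28 and 8.24 FPKM. Its resistant values lay inside the sensitive range (log2 0.01, interval -0.50 to 0.51). Without sensitive replicate 3, ACACA was called lower (log2 -0.23, adjusted p = 0.0379 in limma). ACACB, the mitochondrial-surface form whose malonyl-CoA restrains fatty acid entry into mitochondria, was at 0.947, 1.27 and 0.706 FPKM in sensitive and 0.304, 0.351 and 0.307 FPKM in resistant libraries. It was not tested, although its groups did not overlap.

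FASN, the synthase that makes palmitate, was at 60.0, 58.9 and 40.0 FPKM in sensitive and 24.2, 23.4 and 24.0 FPKM in resistant libraries. Every resistant library was below every sensitive one, and the mean was 2.22-fold lower (53.0 ± 11.2 against 23.9 ± 0.437 FPKM, log2 -1.09, SE 0.168, adjusted p = 0.00106 in limma). ACSS2, which makes acetyl-CoA from acetate, was at 14.0, 15.3 and 15.3 against 11.02, 11.4 and 12.5 FPKM. Its fall was small (log2 -0.33, interval -0.59 to -0.07, adjusted p = 0.0296 in limma), and the call ended without sensitive replicate 2 or without resistant replicate 1 or 2 (adjusted p from 0.0943 to 0.11). Of the 4 tested synthesis genes, 2 were thus lower, none higher and 2 not called, beside 32.5% lower and 35.2% higher of all tested genes.

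On the log2(FPKM + 1) scale SCD showed the largest change of the tested members, whereas by the ratio of mean FPKM the low gene PPARGC1A fell further (79.7-fold). Stearoyl-CoA desaturase places the first double bond into saturated acyl chains and makes oleate and palmitoleate. Its transcript stood at 389, 395 and 271 FPKM in sensitive and at 6.73, 10.5 and 9.74 FPKM in resistant libraries. The mean was 39.1-fold lower (352 ± 69.8 against 8.998 ± 2.00 FPKM, log2 -5.14, SE 0.21, adjusted p = 1.98e-06 in limma). SCD was the member with the highest level in each sensitive library and ranked far below FASN, ACLY and ELOVL1 in the resistant ones. SCD5, a related desaturase also named after its values were seen, was at 0.697 ± 0.332 and 1.73 ± 0.219 FPKM and was called higher (log2 0.70), and only its resistant values reached the filter.

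The promoter window of SCD is shown because it belongs to the transcript with the largest change on the log2(FPKM + 1) scale. It runs from 250 bases before to 50 bases after the RefSeq start (GRCh38.p14, chr10:100346983-100347282, plus strand), and capitals mark the NF-Y box CCAAT, found 229 and 186 bases before the start. ELOVL5, also called lower, holds 2 such boxes on the opposite strand, 122 and 68 bases before its start, and an E-box CACGTG 211 bases before it (chr6:53348901-53349200, minus strand). ACLY, not called, also holds 2 boxes. ELOVL1 and ACSL3, both called higher, each hold a box, and FADS1, called lower, holds none. Whether the box is related to the changes was not tested.
SCD: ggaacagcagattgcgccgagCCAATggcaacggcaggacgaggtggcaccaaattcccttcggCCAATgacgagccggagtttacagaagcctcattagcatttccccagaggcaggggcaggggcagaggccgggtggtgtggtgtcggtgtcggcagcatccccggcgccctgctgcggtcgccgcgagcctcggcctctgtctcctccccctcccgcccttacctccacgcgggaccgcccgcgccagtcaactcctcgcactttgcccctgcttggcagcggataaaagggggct
ELOVL5: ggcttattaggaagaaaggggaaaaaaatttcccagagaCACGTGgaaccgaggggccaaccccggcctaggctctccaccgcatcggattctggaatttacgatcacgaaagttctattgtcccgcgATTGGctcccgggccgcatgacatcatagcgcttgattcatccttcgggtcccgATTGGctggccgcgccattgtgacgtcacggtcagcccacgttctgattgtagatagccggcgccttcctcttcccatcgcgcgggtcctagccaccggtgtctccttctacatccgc

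The share of member promoters with each motif is given beside that of all promoters, with no test. Windows of 300 bases were found for 33 members, credited to RefSeq. On either strand, CCAAT was found in 10 of the 33 (30.3%), against 35.7% of 27305 promoters. CACGTG was found in 3 (ELOVL5, PLIN2 and PPARGC1A, 9.09%, against 7.43%). The sterol regulatory element core TCACNCCAC was found only in PPARGC1B (3.03%, against 1.15%). The nuclear receptor motif AGGTCA was found in ELOVL6 and ACSL5 (6.06%, against 13.9%), and its direct repeat with 1 base between the copies in none of the 33. The windows of FASN, ACAA1, EHHADH, DGAT1 and DGAT2 were not used here. A match describes letters in this window and not a site in use.

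The desaturases of polyunsaturated fatty acids moved in opposite directions. FADS1 introduces the double bond that yields arachidonate, and FADS2 acts at an earlier step of the same pathway. FADS1 was at 67.8, 73.0 and 69.5 FPKM in sensitive and 22.4, 23.9 and 25.7 FPKM in resistant libraries, 2.92-fold lower (log2 -1.51, SE 0.0978, adjusted p = 1.51e-05 in limma). FADS2 was at 2.04, 2.71 and 1.84 against 5.38, 5.62 and 6.12 FPKM, 2.60-fold higher (log2 1.08, SE 0.139, adjusted p = 0.000458 in limma). Neither gene's groups overlapped. The genes lie on opposite strands of chromosome 11. The RefSeq start of FADS1 is 800 bases into FADS2, and their exons share 490 bases in GENCODE release 29. The strand setting of the counting is not given in the sources used here, so reads from the shared stretch may be divided wrongly between them.

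Among the member elongases, which lengthen acyl chains in the endoplasmic reticulum, 2 rose, 1 fell and 1 was not called. ELOVL1, which makes very long saturated chains for sphingolipids, rose from 90.4, 99.4 and 113 to 163, 157 and 153.5 FPKM (log2 0.64, adjusted p = 0.00175 in limma). ELOVL7, which also acts on saturated long chains, rose from 3.03, 2.72 and 1.80 to 6.16, 7.82 and 8.53 FPKM, 2.98-fold (log2 1.28, adjusted p = 0.000809 in limma). The groups of both were separate. ELOVL5, the elongase of polyunsaturated chains, fell from 41.3, 39.2 and 32.3 to 17.9, 17.5 and 19.1 FPKM, a 2.07-fold difference (SE of the log2 change 0.123, adjusted p = 0.000347 in limma).

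ELOVL6, which elongates palmitate to stearate, the substrate of SCD, depended on sensitive replicate 3. Its values were 5.49, 4.89 and 1.26 FPKM in sensitive and 0.900, 1.14 and 1.51 FPKM in resistant libraries, so that sensitive replicate 3 lay among the resistant ones. With all libraries ELOVL6 was not called (log2 -1.03, interval -1.97 to -0.08, adjusted p = 0.0541). Without sensitive replicate 3 it was called lower (log2 -1.51, adjusted p = 1.2e-05 in limma). Quantile normalization (adjusted p = 0.023) and median scaling against the geometric mean of all libraries (adjusted p = 0.0394) also brought a call in limma.

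**Figure D2:**
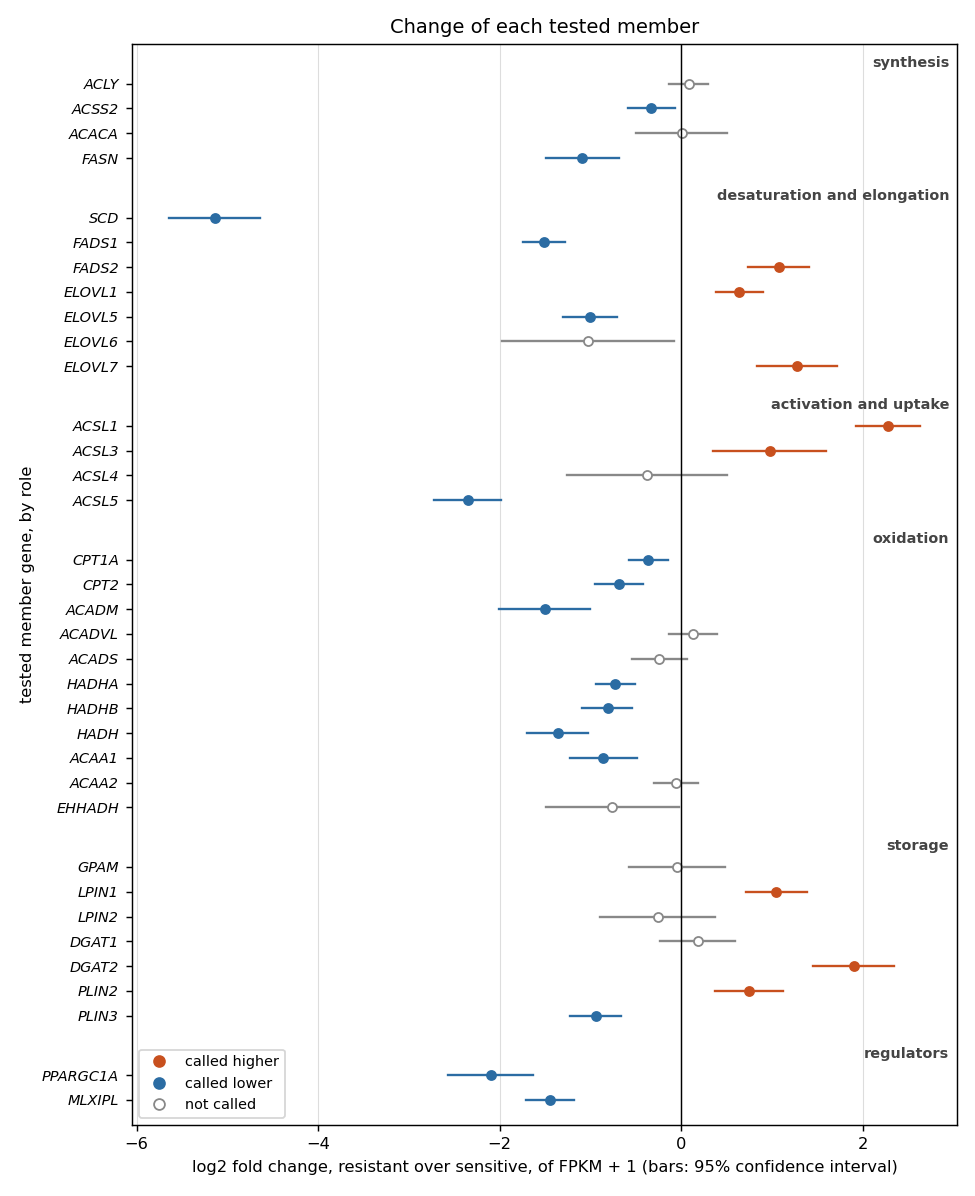
Log2 fold change of FPKM + 1, resistant over sensitive, on the horizontal axis for the 35 tested members, grouped by role. Points are limma estimates, bars their 95% confidence intervals, filled points are called genes (orange higher, blue lower) and open grey points were not called. SCD lies at -5.14, and no gene of the oxidation group is filled on the right of 0.

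Of the long-chain acyl-CoA synthetases, which commit fatty acids to storage or oxidation, 2 rose, 1 fell and 1 was not called. ACSL1, the main form of liver and fat tissue, was at 1.26, 1.01 and 0.794 FPKM in sensitive and 10.1, 7.82 and 8.53 FPKM in resistant libraries. This was 8.66-fold higher and the largest rise among the members (log2 2.28, SE 0.146, adjusted p = 1.4e-05 in limma). ACSL5, a form of mitochondria and endoplasmic reticulum, went the other way, from 5.01, 4.36 and 6.72 to 0.339, 0.215 and 0.155 FPKM, 22.7-fold lower (log2 -2.35, adjusted p = 1.65e-05 in limma). Its exons share 144 bases with ZDHHC6 on the other strand.

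ACSL3, found on lipid droplets, was at 16.1, 14.0 and 7.503 against 22.01, 24.6 and 27.2 FPKM. Every resistant library was higher (log2 0.98, SE 0.263, adjusted p = 0.0143 in limma), and without resistant replicate 3 the call ended (adjusted p = 0.0584). ACSL4, which prefers polyunsaturated substrates, was at 31.8, 26.7 and 10.9 against 13.8, 16.4 and 18.1 FPKM. The groups overlapped through sensitive replicate 3 (log2 -0.38, interval -1.26 to 0.50), and without that library ACSL4 was called lower (log2 -0.83, adjusted p = 0.00032 in limma). CD36, a fatty acid uptake receptor, was low throughout, at 0.223, 0.271 and 0.232 FPKM in sensitive libraries, and was listed at 0, 0 and 0.00431 FPKM in the resistant ones.

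Of the 11 oxidation genes, mitochondrial and peroxisomal, 7 fell, none rose and 4 were not called. Across all tested genes 32.5% were called lower and 35.2% higher. The median log2 fold change of this branch was -0.73. The carnitine shuttle carries long acyl chains into mitochondria. Its outer-membrane enzyme CPT1A, the entry point that malonyl-CoA inhibits, was at 39.9, 42.0 and 41.4 FPKM in sensitive and 32.7, 31.0 and 31.7 FPKM in resistant libraries (log2 -0.36, adjusted p = 0.00967 in limma). The groups were separate, yet the difference was 1.29-fold, and without resistant replicate 2 the call ended (adjusted p = 0.0501). CPT2 of the inner membrane fell from 10.7, 12.3 and 10.9 to 6.45, 6.77 and 6.76 FPKM (log2 -0.68, adjusted p = 0.00138 in limma).

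The acyl-CoA dehydrogenases, which open each cycle and are named for chain length, differed among themselves. ACADM, for medium chains, was at 58.7, 47.5 and 35.0 FPKM in sensitive and 12.9, 16.8 and 17.6 FPKM in resistant libraries, 2.99-fold lower (log2 -1.50, SE 0.211, adjusted p = 0.000685 in limma). Its exons share 157 bases with RABGGTB on the same strand, a gene at 205 and 66.8 FPKM in the respective groups. ACADVL, for very long chains, was at 86.7, 89.4 and 107 against 106, 101 and 102 FPKM and overlapped (log2 0.13, interval -0.13 to 0.40). Without sensitive replicate 3 (log2 0.23, adjusted p = 0.0108 in limma) and under quantile normalization (log2 0.27, adjusted p = 0.016 in limma) ACADVL was called higher. ACADS, for short chains, was at 3.82, 4.42 and 4.43 against 3.64, 3.67 and 2.95 FPKM, separate between groups but not called (log2 -0.24, adjusted p = 0.128).

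The transcripts of both subunits of the trifunctional protein, which carries out the remaining steps for long chains, fell. HADHA, the alpha subunit, was at 137, 143 and 131 FPKM in sensitive and 85.5, 82.8 and 79.0 FPKM in resistant libraries (1.66-fold lower, log2 -0.73, adjusted p = 0.000362 in limma). HADHB, the beta subunit, was at 66.5, 64.5 and 55.3 against 36.9, 35.7 and 32.0 FPKM (1.78-fold lower, log2 -0.81, adjusted p = 0.000708 in limma). The ratio of HADHA to HADHB within a library was 2.06, 2.21 and 2.37 in sensitive and 2.32, 2.32 and 2.47 in resistant libraries, so the transcripts stayed near a common ratio while both fell. Their promoters are shown because the genes are neighbours on chromosome 2 that point away from each other, with 307 bases between the RefSeq starts. The windows (GRCh38.p14, chr2:26244583-26244882 on the minus strand for HADHA and chr2:26244689-26244988 on the plus strand for HADHB) share 194 bases, which are in capitals and read as reverse complements.
HADHA: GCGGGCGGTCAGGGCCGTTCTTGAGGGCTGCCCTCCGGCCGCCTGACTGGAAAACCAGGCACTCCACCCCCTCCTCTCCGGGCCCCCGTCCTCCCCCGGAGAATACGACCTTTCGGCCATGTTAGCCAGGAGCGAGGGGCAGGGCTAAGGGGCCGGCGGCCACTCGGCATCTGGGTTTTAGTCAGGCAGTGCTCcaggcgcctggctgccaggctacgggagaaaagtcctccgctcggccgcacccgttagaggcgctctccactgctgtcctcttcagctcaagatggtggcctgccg
HADHB: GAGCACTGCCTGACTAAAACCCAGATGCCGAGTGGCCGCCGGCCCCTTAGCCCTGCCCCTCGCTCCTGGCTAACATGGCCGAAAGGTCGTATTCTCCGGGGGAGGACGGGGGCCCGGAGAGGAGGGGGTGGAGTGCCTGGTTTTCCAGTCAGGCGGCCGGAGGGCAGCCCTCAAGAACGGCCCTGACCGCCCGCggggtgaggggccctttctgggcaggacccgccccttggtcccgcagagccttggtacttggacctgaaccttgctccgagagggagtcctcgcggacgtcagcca

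HADH, the gene of the short- and medium-chain hydroxyacyl-CoA dehydrogenase, fell more than these subunit transcripts. It was at 21.2, 20.2 and 27.4 FPKM in sensitive and 8.33, 8.59 and 7.85 FPKM in resistant libraries, 2.78-fold lower (log2 -1.36, SE 0.141, adjusted p = 0.000149 in limma). The thiolases release acetyl-CoA at the end of each cycle. ACAA1, the peroxisomal thiolase, fell from 32.5, 35.4 and 47.4 to 21.2, 20.7 and 19.6 FPKM (log2 -0.86, adjusted p = 0.00226 in limma). ACAA2, the mitochondrial thiolase, was at 39.1, 38.5 and 35.6 against 36.4, 38.5 and 33.7 FPKM, with overlapping groups (log2 -0.06, interval -0.30 to 0.18). EHHADH, the peroxisomal bifunctional enzyme, was at 4.48, 3.27 and 1.29 against 1.14, 1.11 and 1.46 FPKM. Sensitive replicate 3 again lay among the resistant libraries (log2 -0.76, adjusted p = 0.0637), and without it EHHADH was called lower (log2 -1.12, adjusted p = 8.2e-05 in limma). Quantile normalization (adjusted p = 0.0212) and median scaling against the geometric mean of all libraries (adjusted p = 0.0438) also gave a call in limma.

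Triglyceride storage genes changed in both directions, with 3 of 7 higher, 1 lower and 3 not called. Across all tested genes 35.2% were called higher and 32.5% lower. GPAM, the mitochondrial acyltransferase of the first step, was at 3.07, 2.79 and 1.44 FPKM in sensitive and 1.75, 2.44 and 2.59 FPKM in resistant libraries, and overlapped (log2 -0.05, interval -0.57 to 0.48). The lipins turn phosphatidate into diacylglycerol. LPIN1 rose from 1.22, 1.21 and 0.647 to 2.97, 3.22 and 3.28 FPKM, 3.09-fold (log2 1.05, SE 0.142, adjusted p = 0.000565 in limma). LPIN2, the more abundant lipin, was at 20.1, 20.7 and 10.1 against 13.5, 13.9 and 12.8 FPKM. It was not called with all libraries (log2 -0.26, interval -0.89 to 0.37) and was called lower without sensitive replicate 3 (log2 -0.58, adjusted p = 0.000179 in limma).

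The last step, from diacylglycerol to triglyceride, has an enzyme from each of a pair of unrelated families. DGAT2 was at 0.891, 1.41 and 0.466 FPKM in sensitive and 6.02, 5.64 and 6.42 FPKM in resistant libraries, 6.53-fold higher (log2 1.90, SE 0.189, adjusted p = 0.000124 in limma). Each resistant library was above every sensitive one. DGAT1 was at 5.82, 6.26 and 8.65 against 8.18, 8.73 and 6.80 FPKM and overlapped (log2 0.18, interval -0.23 to 0.59). Without sensitive replicate 3, DGAT1 was called higher (log2 0.33, adjusted p = 0.0276 in limma). Its exons share 139 bases with HSF1 on the other strand, which was at 29.6 FPKM in sensitive and 40.3 FPKM in resistant libraries. In all, 8 members share exon bases with another gene of the files, 6 of them with a gene on the other strand.

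Perilipins coat lipid droplets, and the members of this family moved apart. PLIN2, the droplet coat of liver cells, rose from 24.2, 26.5 and 18.4 to 36.7, 37.2 and 43.2 FPKM (1.69-fold, log2 0.75, adjusted p = 0.00467 in limma). PLIN3, a coat protein that moves between cytosol and droplets, fell from 71.3, 80.0 and 91.8 to 39.8, 42.7 and 42.3 FPKM (1.95-fold, log2 -0.94, adjusted p = 0.000391 in limma). Resistant and sensitive values were separate for both.

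Both tested regulators fell, to levels below 1 FPKM in each resistant library, and both had reached the filter by their sensitive values alone. PPARGC1A, the coactivator of mitochondrial and oxidation genes, was at 4.66, 3.86 and 2.28 FPKM in sensitive and 0.0198, 0.0655 and 0.0502 FPKM in resistant libraries (log2 -2.10, adjusted p = 8.92e-05 in limma). MLXIPL, the glucose-sensing activator of lipogenic genes, was at 2.62, 1.84 and 2.01 against 0.119, 0.206 and 0.143 FPKM (log2 -1.44, adjusted p = 3.48e-05 in limma). PPARGC1B, a related coactivator, was under 1 FPKM in all libraries, at 0.576, 0.679 and 0.242 against 0.25, 0.248 and 0.329 FPKM.

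Among the members of 8 families, the shares of the isozymes did not overlap between the groups. The groups of 74.4% of all tested genes did not overlap in level, and shares in other gene families were not computed. A share here is a gene's part of the summed FPKM of the members of its family within a library. Genes of a family that are not members are left out of the sum. Such a share does not depend on how libraries are scaled. Among the ACSL genes, ACSL4 led in sensitive libraries with 52.9% ± 9.42 and ACSL3 in resistant ones with 49.4% ± 1.60. ACSL1 went from 2.53% ± 0.473 to 17.9% ± 3.45, and ACSL5 from 14.9% ± 9.57 to 0.486% ± 0.226, while the family's sum was 42.0 ± 14.5 and 49.7 ± 3.85 FPKM. The ACSL5 share was 9.25%, 9.46% and 25.9% in the sensitive libraries, and without replicate 3 its difference went from -14.4 to -8.87 percentage points. DGAT2 made up 12.3% ± 6.70 of the DGAT sum in sensitive and 43.4% ± 4.75 in resistant libraries.

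PLIN2 went from 22.3% ± 4.86 to 48.3% ± 2.03 of the perilipin pair. FADS2 went from 3.03% ± 0.508 to 19.2% ± 0.150 of the pair FADS1 and FADS2. LPIN1 went from 5.75% ± 0.271 to 19.1% ± 1.23 of the pair LPIN1 and LPIN2. FADS3 and LPIN3, which are not members, are outside these pairs, and both were called higher. FADS3 was at 11.9 ± 3.86 FPKM in sensitive and 28.8 ± 0.13 FPKM in resistant libraries, and LPIN3 at 3.25 ± 0.251 and 5.65 ± 0.225 FPKM. ELOVL1 went from 69.5% ± 6.01 to 85.4% ± 1.32 of the summed member elongases (ELOVL1, ELOVL5, ELOVL6 and ELOVL7), and ELOVL5 from 26.0% ± 3.92 to 9.84% ± 0.519. ELOVL2, which is not a member, is outside this sum. It was at 54.1 ± 19.1 FPKM in sensitive and 0.194 ± 0.23 FPKM in resistant libraries, so shares of all elongases would differ from these. The ELOVL6 share was 3.91%, 3.35% and 0.848% in sensitive and 0.480%, 0.624% and 0.828% in resistant libraries. It was thus only narrowly separate, through sensitive replicate 3. ACACA, at 89.3% ± 1.37 and 96.2% ± 0.240, was the main carboxylase in every library. PPARGC1A held 88.2% ± 2.78 of its pair in sensitive and 13.8% ± 6.80 in resistant libraries, although both coactivators were under 1 FPKM in the latter. All 20 shares were separate between the groups, with an exact two-sided permutation p of 0.1 before and after Benjamini-Hochberg adjustment over the 20, the smallest that 3 against 3 libraries can give. In 6 of the 8 families there are 2 members, so their 12 shares are complements and each such pair is a single outcome.

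**Figure D3:**
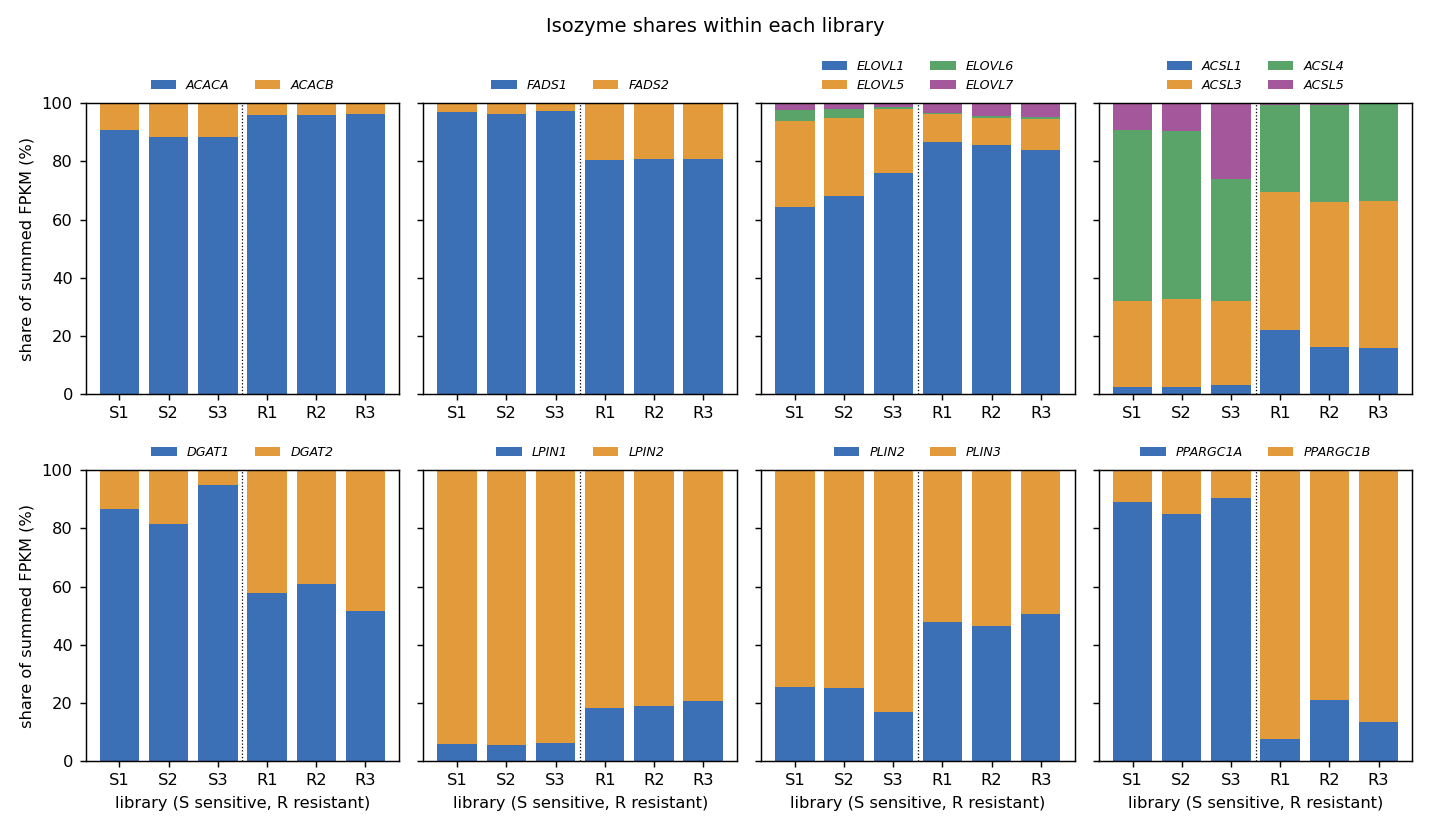
Share of each isozyme in the summed FPKM of the members of its family, in percent on the vertical axis, in 8 gene families. Libraries are on the horizontal axis (S1 to S3 sensitive, R1 to R3 resistant), and genes that are not members are left out of the sums. ACSL1 rises from 2.53% to 17.9% of its family on average, DGAT2 from 12.3% to 43.4% and PLIN2 from 22.3% to 48.3%.

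Sensitive replicate 3 was the lowest of the sensitive libraries for 22 of 35 tested members (62.9%, against 52.7% of all tested genes) and the highest for 8 (22.9%, against 37.8%). It was at least 1.5 times below both other sensitive libraries for 11 members, among them ACSL4, ELOVL6, EHHADH, LPIN2 and DGAT2 (31.4%, against 25.5% of all tested genes). Sensitive replicates 1 and 2 differed by more than 1.5 times only for DGAT2. Among resistant libraries the highest exceeded the lowest by more than 1.5 times for 5 members. These were SCD, ELOVL6, ACSL5, PPARGC1A and MLXIPL.

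Other genes of lipid metabolism were grouped in 5 lists by role. The counts of each list stand beside 35.2% of all tested genes called higher and 32.5% called lower. No list was tested against these shares. Among 20 tested lipid regulators 6 were called higher and 9 lower, with a median log2 fold change of -0.43. SIRT1, a deacetylase that acts on PGC-1alpha, rose from 2.94 ± 1.18 to 28.3 ± 3.81 FPKM (log2 2.93), and the nuclear receptor corepressor NCOR1 from 8.92 ± 4.23 to 39.7 ± 2.03 FPKM (2.15). INSIG1, which holds SREBP precursors in the endoplasmic reticulum and is itself a sterol-responsive gene, fell from 26.7 ± 7.23 to 2.89 ± 0.406 FPKM (-2.81), and MLX, the partner of ChREBP, by 1.12. Without resistant replicate 1, and also without resistant replicate 2, only 5 regulators were called lower.

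SREBF1, SREBF2 and SCAP, named here after their values were seen, are the factors and escort protein of the SREBP pathway, and SREBF1 rose while SCD, a known SREBP target, fell. SREBF1 was at 10.8, 10.5 and 8.80 FPKM in sensitive and 49.2, 48.1 and 45.0 FPKM in resistant libraries (log2 2.14, adjusted p = 6.3e-06 in limma). SREBF2, the sterol pathway's factor, was at 40.2 ± 6.51 and 18.4 ± 0.971 FPKM (-1.08), and the escort protein SCAP at 30.6 ± 7.13 and 16.6 ± 0.542 FPKM (-0.82), both called lower. The values are transcript levels and do not show how much of either factor was processed and active.

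Of 18 tested genes of other synthesis and elongation 5 rose and 8 fell, and without the 6 that reached the filter in 1 group alone, which fixed their direction, 2 of 12 rose and 5 fell. ELOVL2, an elongase of polyunsaturated chains, fell from 54.1 ± 19.1 to 0.194 ± 0.23 FPKM (log2 -5.48), and only its sensitive values reached the filter. TECR, the reductase of the elongation cycle, fell from 99.6 ± 36.1 to 7.25 ± 0.376 FPKM (-3.55). ACSS1, the mitochondrial acetyl-CoA synthetase, rose by 2.01, with only its resistant values reaching the filter, and MECR of mitochondrial fatty acid synthesis by 1.77 on the log2 scale.

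Of 12 tested genes of other uptake, binding and activation, 8 were lower and 1 higher (median log2 -1.06). The liver fatty acid binding protein FABP1 went from 25.7 ± 0.838 to 0.321 ± 0.0289 FPKM (-4.34) and hepatic lipase LIPC from 20.3 ± 6.66 to 0.128 ± 0.0538 FPKM (-4.19). Only the sensitive values of both reached the filter. This holds for 5 of the 12 genes, all among the 8 called lower, and without them 3 of 7 were lower and 1 higher (median log2 -0.54). ACSF3, a mitochondrial malonyl-CoA synthetase, was the gene called higher (0.78, adjusted p = 0.0484 in limma), and that count was 0 without any of the resistant replicates and 2 without sensitive replicate 3.

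Of 34 tested genes of other oxidation steps, 21 fell and 7 rose (median log2 -0.67). Without the 3 that reached the filter in 1 group alone, 20 of 31 fell and 5 rose. ABCD3, a peroxisomal fatty acyl transporter, fell from 91.5 ± 37.5 to 5.88 ± 0.774 FPKM (-3.67), and ETFDH, which passes electrons from acyl-CoA dehydrogenases to the respiratory chain, from 14.6 ± 1.79 to 1.84 ± 0.232 FPKM (-2.45). The acyl-CoA thioesterase ACOT7 rose from 31.0 ± 2.33 to 91.4 ± 4.72 FPKM (1.53). ACOT4, a peroxisomal thioesterase, was listed at 0, 0 and 0.0352 FPKM in sensitive and at 6.10, 6.83 and 5.83 FPKM in resistant libraries, which alone reached the filter.

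Among 19 tested genes of other storage and lipolysis, 5 rose and 10 fell (median log2 -0.60). Without the 5 that reached the filter in 1 group alone, 2 of 14 rose and 8 fell. Monoglyceride lipase (MGLL) went from 0.0417 ± 0.0179 to 26.7 ± 0.67 FPKM (4.73), and G0S2, an inhibitor of adipose triglyceride lipase, was listed at 0, 0.114 and 0 against 1.78, 1.77 and 1.79 FPKM. Only the resistant values of both reached the filter. The droplet-associated dehydrogenase HSD17B11 fell from 91.4 ± 23.1 to 14.0 ± 0.943 FPKM (-2.59) and lysosomal acid lipase (LIPA) from 39.4 ± 8.54 to 7.72 ± 1.33 FPKM (-2.20).

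**Figure D4:**
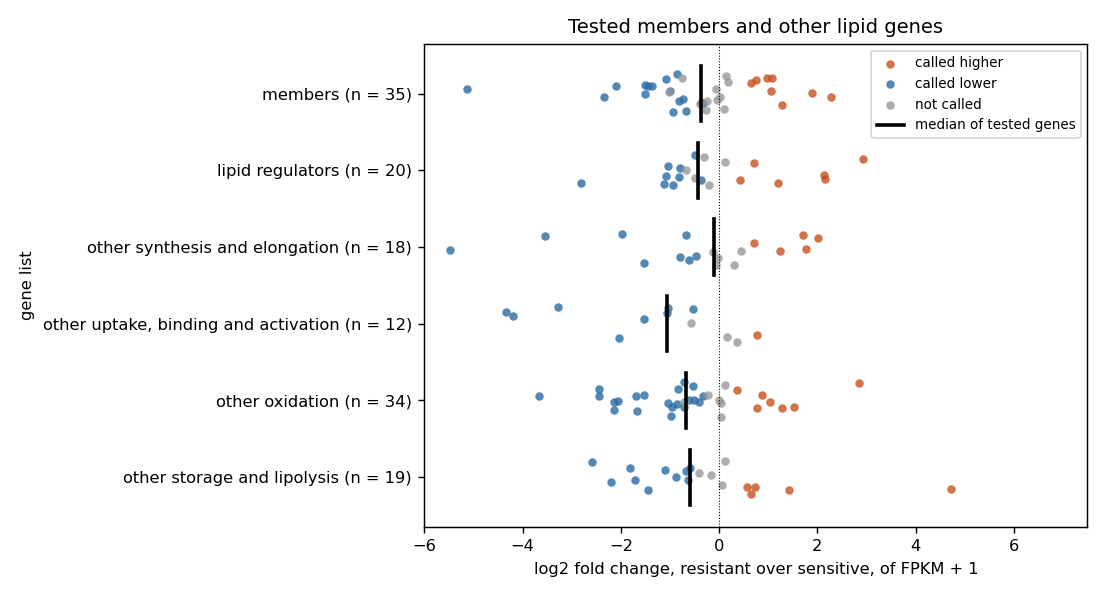
Log2 fold change of FPKM + 1, resistant over sensitive, on the horizontal axis for each tested member and each tested gene of 5 further lists of lipid genes on the vertical axis. Orange points were called higher, blue lower and grey not called, the vertical scatter within a list carries no value, and black lines are medians. The medians run from -1.06 (other uptake, binding and activation) to -0.10 (other synthesis and elongation), against -0.36 for the members.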

How the data were processed

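RNA-seq of 6 libraries was analysed, 3 sensitive and 3 resistant, grouped by the sample titles. The authors deposited a table per library with a value per gene symbol, taken here as FPKM from the values (column sums differ between libraries, and RPKM would look the same). Per the submitters' processing notes, cutadapt and HISAT2 were used. Their versions, the counting program, build, annotation and use of strand: not given in the sources used here. Read counts were not used. Relative depth was read from the commonest ratio between libraries of values under 0.2 FPKM of the same gene. No gene had exactly the same nonzero value in any pair of the 6 libraries.

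A gene needed 1 FPKM or more in 3 or more libraries and was tested on log2(FPKM + 1) with limma 3.58.1 in R 4.3.3 (limma-trend, two-sided, 4 residual and 2.75 prior degrees of freedom), all libraries in a fit of group without a block, with Benjamini-Hochberg adjustment. The fit was tested on simulated data of 11694 genes, with 50 genes changed at each fold. It recovered 10% at 1.5-fold, 26% at 2-fold, 84% at 4-fold and 90% at 8-fold, and called 6 unchanged genes. Far fewer genes were changed in the simulation than were called in these data, so these rates do not carry over to the calls here. Tables were made with pandas 2.3.3 and scipy 1.17.1 in Python 3.11.15, and figures with matplotlib 3.10.9. Members, gene lists and motifs were chosen with earlier results of these data known. Every member is reported, and of each other list the 2 called genes with the largest change in each direction are named. Exon overlaps are from GENCODE release 29 and promoter windows from RefSeq. Alternatives were other scalings, pseudocounts, filters and variance models, the replicate number as a block, and each library left out.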

Additional observations from a re-analysis of the deposited data

How the results depend on the processing

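Of the 24 called members, 21 kept direction and call under every alternative that tested them, and ACSS2, ACSL3 and CPT1A lost the call under at least 1. Deviations of same-numbered libraries from their group means correlated at -0.422, 0.0717 and -0.228. With 3 libraries per group these values cannot decide whether the numbers pair the libraries, which the labels do not state. With the replicate block 7193 genes were called against 7920, and 8 members were higher and 14 lower, with ACSS2 (adjusted p = 0.0925 in limma) and CPT1A (0.0557) lost. With a mean of at least 5 FPKM, 4973 genes were called (2465 higher and 2508 lower) of 7396 tested, and 4 members were higher of 24 tested, since fewer genes were tested.

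With all libraries the median log2 fold change was -0.16 for synthesis, 0.30 for activation and uptake, -0.73 for oxidation, 0.18 for storage and -1.77 for regulators. Without a filter synthesis was at -0.33, regulators at -1.44 and activation and uptake, with its sign turned, at -0.31, since ACACB, PPARGC1B and CD36 then entered. The regulators' median was -3.88 with a pseudocount of 0.1, and the storage median turned to -0.04 over the 4 genes with a mean of at least 5 FPKM. With each library left out in turn, the median of activation and uptake ran from -0.08 to 0.54 (-0.08 without sensitive replicate 3), of desaturation and elongation from -1.11 to -0.75, of oxidation from -0.72 to -0.67, of synthesis from -0.27 to -0.10 and of storage from 0.09 to 0.33. The count of regulators called lower ran from 5 to 13 and of uptake genes called higher from 0 to 2. The causes were not tested.

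ACACA and GPAM, near 0, turned sign, and ACACA was called lower without sensitive replicate 3. ACACA was at -0.09 after quantile normalization, at -0.01 after median scaling and from -0.23 to 0.13 with a library left out, and GPAM from -0.28 to 0.09. Counting depth limits genes below 1 FPKM, here ACACB, CD36 and PPARGC1B.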

Other observations

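The genes in this section were chosen after their values were seen and are given as values only. The electron transfer flavoprotein genes, which take electrons from the acyl-CoA dehydrogenases, were lower in resistant libraries in 3 of 3 cases. Of all tested genes 32.5% were called lower. ETFA stood at 120 ± 3.15 FPKM (sensitive) and 28.0 ± 2.80 FPKM (resistant) (log2 -2.06), ETFB at 61.3 ± 18.3 and 28.4 ± 2.10 FPKM (-1.05), and ETFDH is given above.

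SREBF1 and NCOR1, both higher in resistant libraries, lie on chromosome 17 with COPS3 between them in the RefSeq order. Of the 17 tested genes from NCOR1 to SREBF1, 15 were called higher and 2 lower, where 35.2% and 32.5% of all tested genes were. The median log2 fold change of the 17 was 2.05, and that of all tested genes 0.08. NCOR1 and SREBF1 bound the stretch, were seen to be higher beforehand and are themselves counted in it. The shares of all tested genes are therefore no test of this stretch. Why these neighbours were higher was not tested.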
